A study of Mus musculus with 18 samples.

Results

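The 39 coding Hox genes of the mouse, the homeobox transcription factor genes of the HoxA, HoxB, HoxC and HoxD clusters, were followed through a chemical reprogramming course. Members were taken by symbol from the 55401 genes of the deposited tables, and 38 of the 39 are described here: 10 in HoxA, 10 in HoxB, 9 in HoxC and 9 in HoxD. RNA of 18 libraries was sequenced, 2 in each of 9 groups. The start (D0) was mouse embryonic fibroblasts (MEF) of E13.5 embryos of the 129XOG2 strain, in which OG2 names an Oct4-GFP reporter, grown at passages 1 to 3 in DMEM with fetal bovine serum. Cells were then sampled on days 2, 4, 6, 8, 10 and 12 (D2 to D12) in a reprogramming medium whose composition is not given in the sources used here. The end points were induced pluripotent stem cells of the same strain (riPSC) and the embryonic stem cell line R1 (mESC), derived from a blastocyst. Both were kept on a feeder layer in an N2B27-type medium with mLIF, CHIR99021, an inhibitor of the kinase GSK3, and PD0325901, an inhibitor of the kinase MEK. No label says that the libraries of a group came from separate cultures, so a p-value here reflects the spread between 2 libraries and that spread may be technical.

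Hox genes lie in each cluster in the order in which they are used along the head-to-tail axis of the embryo. Genes with low paralog numbers are used early and towards the head, and genes with high numbers late and towards the tail and the ends of the limbs. Retinoic acid and caudal-type (Cdx) factors are known to switch the clusters on, trithorax group proteins to keep them on, and Polycomb group proteins to keep them silent, as in pluripotent cells. Fibroblasts keep for many passages a Hox pattern that reflects the body site they came from.

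The values are FPKM, fragment counts scaled to exon length and to the mapped fragments of the library, so levels of different genes are compared per length. Depth was estimated from the value of 1 read pair in single-exon genes, and came to between 16.4 and 20.8 M pairs in the 16 libraries other than those of D2, for which no depth is given. In those 16 a single pair was worth 0.0194 to 0.0245 FPKM for a member of median length. Fibroblasts were checked by 13 markers: their summed FPKM was 2853 and 4016 in D0 and 92.5 and 99.6 in riPSC. The pluripotency factor Nanog was listed at 0 in both D0 libraries and at 273 and 275 in riPSC. Mitochondrial genes took from 0.437% of all FPKM in D0 replicate 1 to 62.3% in D12 replicate 1.

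The 2 libraries of D2 share values and are not independent. Over genes above 0 and under 10 FPKM in both libraries of a group, every value of the other 16 libraries had at most 6 decimals (to within 0.02 of the last). Over the 15247 such genes of D2 this held for 17.0% of the values of each library, but for the sum of the 2 libraries in 99.8%. Replicate 1 was 5 times replicate 2, to the rounding of the ninth decimal, for 1989 genes, against at most 2 genes in any other group, and above 5 times for 0 genes, against at least 979. No gene (0) was above 0 in replicate 1 only, against at least 769 in the other groups. How the D2 values were made is not given in the sources used here. The SD of D2, and p-values of comparisons with D2, therefore do not rest on 2 independent libraries, and counts of calls with D2 are also given with the mean of both counted as 1 sample. That setting was chosen after seeing the data and assumes that D2 varies like the other groups.

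D0 replicate 1 stood apart among the members. It listed 14 of the 38 at 0, of which 6 were at 0 in both D0 libraries and 4 were above 1 FPKM in replicate 2. In D0, 31 members were higher in replicate 2 and 1 was lower. Over all genes, too, D0 had the most zeros. Genes above 0 numbered 13751 in D0 replicate 1 and 16517 in replicate 2, against at least 18712 in any other library. Zeros of members in D0, and rises from them, carry this limit. The median absolute difference between the libraries of a group, on the log2(FPKM + 1) scale, was 0.56 over the members in D0, 0.37 in D2, 0.28 in D4 and at most 0.15 later. Over all 16439 genes tested the same measure gave 0.28 for D0, 0.24 for D2 and 0.18 for D4. Since 1 spread per gene was estimated over all groups, p-values among D0, D2 and D4 are likely too small, and calls lost without a single library are named beside the results. Between groups with a smaller spread, such as riPSC and mESC, p-values may be too large. Scaling moved the middle of all genes: the median log2 difference of D2 from D0 was 0.24, or 0.05 with median-of-ratios scaling, and that of riPSC from D0 was 0.62, or 0.19.

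Summed over the 38 members, FPKM went from 83.8 ± 28.2 (SD, n = 2) in D0 through 175 ± 52 in D2 to 277 ± 52.4 in D4. It was then 124 ± 5.36 in D6, 71.4 in both D8 libraries, 49.6 ± 1.33 in D10, 24.6 ± 2.56 in D12, 13.3 ± 0.338 in riPSC and 12.6 ± 1.35 in mESC. The highest sum thus stood on D4. Such bulk values cannot tell fewer cells that express a gene from less RNA per cell. The mean was highest in D4 for 22 of the 38 members, in D0 for 6, in D6 for 4, in D2 for 2, in D8 for 2 and in riPSC for 1, and Hoxb1 was listed at 0 in every library. In 15 of the 22, both D4 libraries were above every other library. How many of all genes had their highest mean in D4, or stood apart there, was not counted. These counts therefore do not show that a D4 peak is particular to Hox genes. A mean of at least 10 FPKM was reached by 1 member in D0, 4 in D2, 11 in D4 and 3 in D6, and by none from D8 on. A mean of at least 1 was reached by 24 members in D0, 27 in D4, 29 in D6, 8 in D12, and 3 in each of riPSC and mESC.

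**Figure D1:**
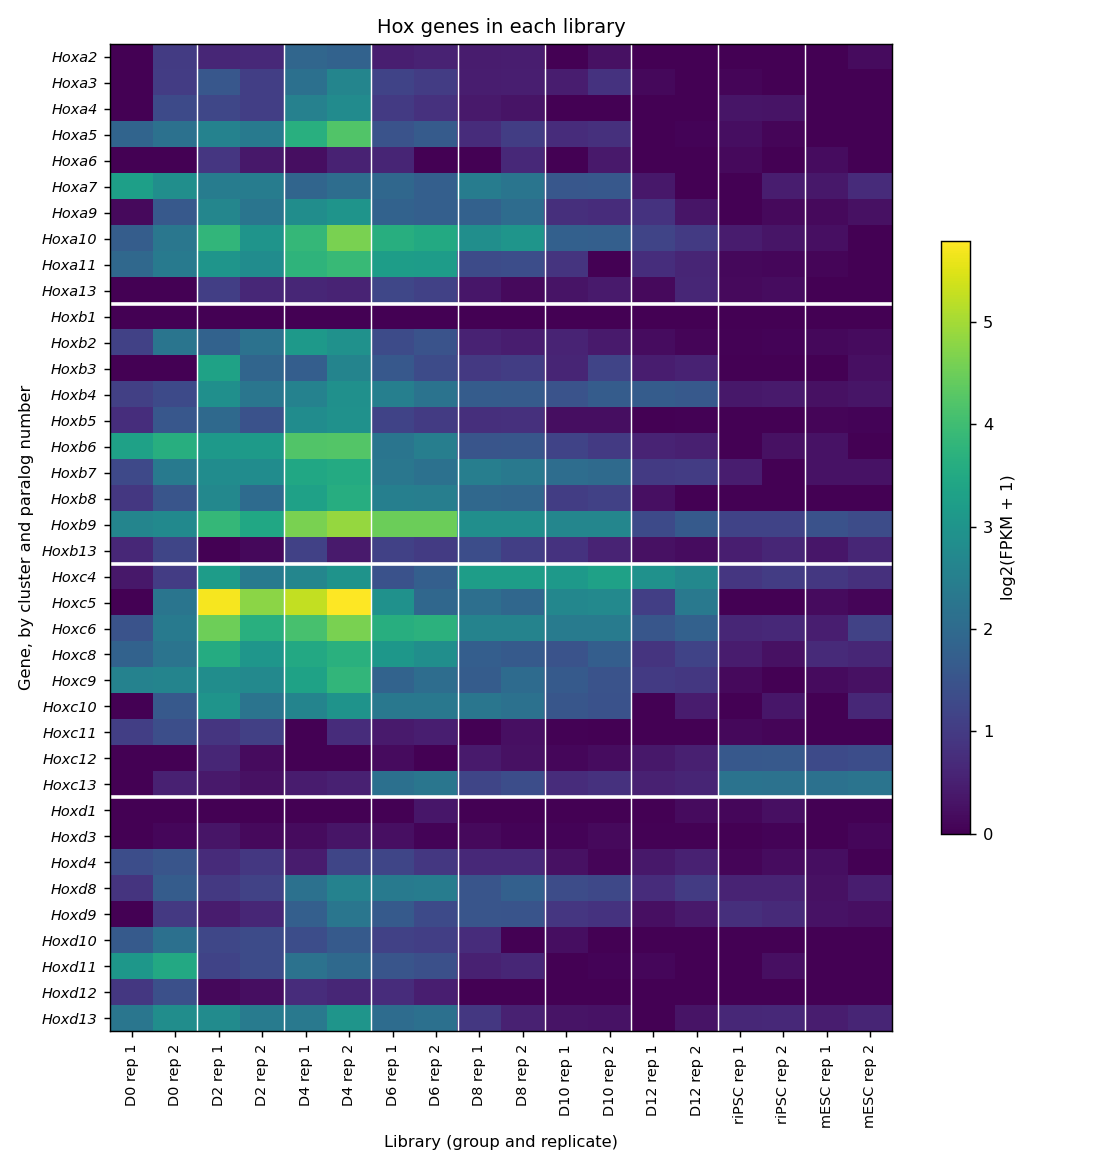
Heat map of log2(FPKM + 1) for the 38 Hox genes (rows, by cluster and paralog number) in each of the 18 libraries (columns, 2 per group). High values crowd into the D2 and D4 columns, Hoxc4 is high on D2 and D4, lower on D6 and high again from D8 to D12, and Hoxc13 has the highest value in riPSC and mESC.

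The 4 clusters held different shares of the sum. HoxD, on chromosome 2, made up 25.8% of it in D0 and 6.26% in D2. HoxC, on chromosome 15, made up 18.9% in D0, 47% in D2, 36.1% in D4, 56.1% in D12 and 57.6% in riPSC. The D12 and riPSC shares rested on different genes. The HoxC sum was 13.8 FPKM in D12, with Hoxc4 highest at a mean of 6.03. In riPSC it was 7.64 FPKM, with Hoxc13 highest at 3.56. HoxA, on chromosome 6, and HoxB, on chromosome 11, took 24.9% and 32% in D4. The summed HoxD level was 21.6 ± 7.08 FPKM in D0, 10.5 ± 0.458 in D2 and 19.6 ± 4.87 in D4. HoxC went over the same days from 16.3 ± 7.93 to 83.6 ± 32.9 and 101 ± 24. The paralog number averaged over members with FPKM as weight was 8.14 in D0, 6.91 in D2, 7.02 in D4, 8.14 in D6, 7.53 in D8, 6.81 in D10, 6.48 in D12 and 9.91 in riPSC. The weight lay on lower numbers on D2, D4, D8, D10 and D12 than in D0 and on higher numbers in riPSC. Within HoxC alone the weighted number was 5.73 in D12 and 10.8 in riPSC.

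**Figure D2:**
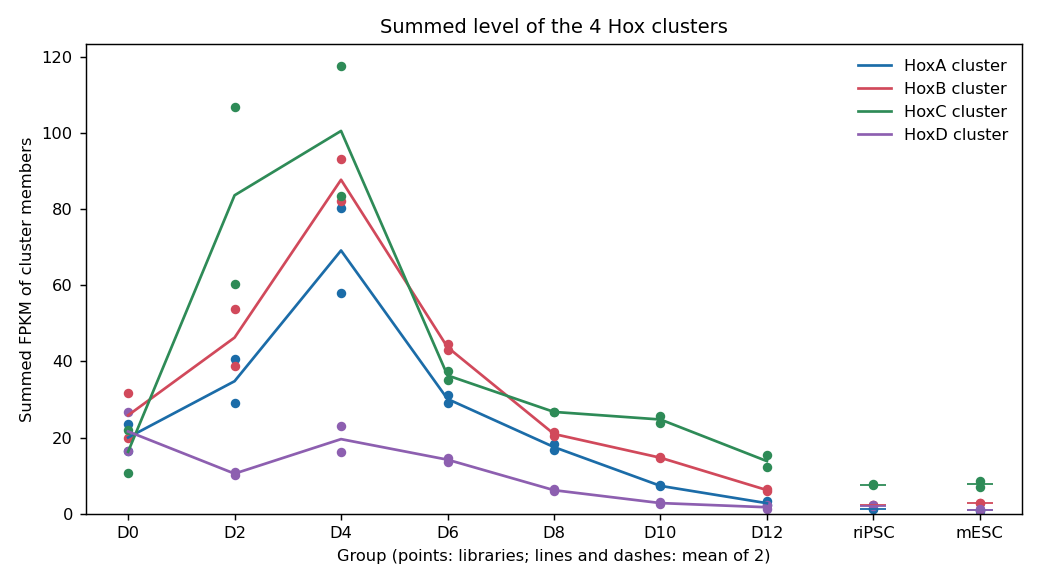
Summed FPKM of the members of each cluster in every library (points), with the mean of the 2 libraries as a line over days 0 to 12 and as a dash for riPSC and mESC. The means of HoxA, HoxB and HoxC are highest on D4, while that of HoxD is lower on D2 than on D0 and D4.

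Hoxc5 had the highest mean of the members on D2 and on D4. It lies at chr15:102967443-103017429 (mm10, plus strand), and was at 0 and 3.73 in D0, 51.1 and 26.6 in D2, and 37.3 and 54.3 in D4. Its values were 6.63 and 2.8 in D6, 3.36 and 2.82 in D8, 5.4 and 5.62 in D10, 1.1 and 4.07 in D12, 0 and 0 in riPSC, and 0.122 and 0.0504 in mESC. All D2 and D4 libraries were above every other library. Hoxc5 is annotated to share 166 exonic bases with Hoxc10, so some reads could belong to either gene. Hoxc6, a gene of the thoracic region, was at 1.8 and 4.2 in D0, 22 and 11.7 in D2, 16.1 and 23.6 in D4, and 11.5 and 12.3 in D6. It was then at 5.01 and 5.04 in D8, 4.28 and 4.32 in D10, 1.94 and 2.48 in D12, 0.54 and 0.576 in riPSC, and 0.399 and 1.21 in mESC, so D6 still lay above both D0 libraries.

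Hoxc8 and Hoxc9 pattern the thoracic region as well. Hoxc8 was at 2.55 and 3.66 in D0, 10.9 and 7.23 in D2, 10.3 and 11.8 in D4, and 7.32 and 6.24 in D6. Its later values were 2.31 and 2.13 in D8, 1.8 and 2.32 in D10, 0.835 and 1.23 in D12, 0.365 and 0.19 in riPSC, and 0.608 and 0.539 in mESC. Hoxc8 thus stayed above both D0 libraries through D6, and Hoxc9 did not. Hoxc9 was at 4.91 and 5.13 in D0, 6.17 and 5.59 in D2, 9.07 and 13.1 in D4, and 2.56 and 3.21 in D6. It was then at 2.22 and 3.04 in D8, 2.12 and 1.81 in D10, 0.974 and 0.929 in D12, 0.101 and 0 in riPSC, and 0.116 and 0.201 in mESC. Hoxc10, a gene of the lumbar region and hindlimb, was at 0 and 2.06 in D0, 7.0 and 3.66 in D2, 5.1 and 6.8 in D4, and 4.0 and 3.96 in D6, and at 3.83 and 3.47 in D8, 1.93 and 1.74 in D10, 0 and 0.352 in D12, 0 and 0.275 in riPSC, and 0 and 0.56 in mESC.

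Hoxc4, the anterior-most gene of its cluster, had a course of its own. It was at 0.30 and 1.05 in D0, 8.13 and 4.17 in D2, 5.29 and 6.8 in D4, and 1.73 and 2.36 in D6. It then stood at 8.35 and 8.31 in D8, 7.59 and 8.93 in D10, 6.6 and 5.47 in D12, 0.874 and 1.04 in riPSC, and 0.919 and 0.742 in mESC. D8 and D10 lay above both D6 libraries, and D12 above both riPSC libraries. At the other end of the cluster, Hoxc13, a gene of hair and nail, was at 0 and 0.443 in D0, 0.308 and 0.20 in D2, 0.353 and 0.448 in D4, and 3.4 and 3.85 in D6. It then stood at 1.3 and 1.58 in D8, 0.665 and 0.764 in D10, 0.447 and 0.516 in D12, 3.59 and 3.53 in riPSC, and 3.45 and 3.66 in mESC, so it was high on D6 and again in the pluripotent groups. Its neighbour Hoxc12 was at 0 and 0 in D0, 0.529 and 0.13 in D2, 0 and 0 in D4, 0.133 and 0 in D6, and 0.339 and 0.198 in D8, and at 0.075 and 0.137 in D10, 0.29 and 0.431 in D12, 2.0 and 2.05 in riPSC, and 1.47 and 1.6 in mESC. Hoxc11 did not share this: it was at 1.12 and 1.63 in D0 and at most 0.0975 in riPSC and mESC.

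In HoxB, the posterior gene Hoxb9 was the most abundant, with 5.24 and 5.75 in D0, 13.6 and 9.86 in D2, 23.6 and 28.3 in D4, and 21.6 and 21.3 in D6. It was at 6.27 and 6.22 in D8, 5.28 and 5.27 in D10, 1.47 and 2.12 in D12, 1.25 and 1.25 in riPSC, and 1.76 and 1.52 in mESC, so D4 and D6 stood above all other groups. Hoxb6 was the most abundant member in D0, with 8.88 and 11.3 in D0, 7.59 and 7.93 in D2, 17.5 and 18 in D4, and 3.78 and 4.56 in D6. It was at 1.88 and 1.92 in D8, 1.23 and 0.976 in D10, 0.483 and 0.432 in D12, 0 and 0.189 in riPSC, and 0.212 and 0 in mESC. Hoxb6 on D6 was already below both D0 libraries, unlike Hoxb9.

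Hoxb7 was at 1.41 and 4.25 in D0, 6.01 and 6.03 in D2, 9.88 and 10.6 in D4, and 3.91 and 3.47 in D6, and at 4.55 and 4.05 in D8, 3.19 and 3.0 in D10, 0.972 and 1.05 in D12, 0.387 and 0 in riPSC, and 0.217 and 0.221 in mESC. Hoxb8 was at 0.904 and 1.89 in D0, 5.48 and 3.09 in D2, 8.98 and 11.1 in D4, and 4.68 and 4.57 in D6, and at 2.91 and 2.75 in D8, 1.08 and 1.18 in D10, 0.179 and 0 in D12, 0 and 0 in riPSC, and 0 and 0 in mESC. Both were highest on D4 in each library. Hoxb2, which patterns the hindbrain, was at 1.16 and 3.74 in D0, 2.52 and 3.54 in D2, 7.74 and 6.63 in D4, and 1.49 and 1.79 in D6, and Hoxb5 at 0.683 and 1.99 in D0, 2.97 and 1.75 in D2, 6.04 and 6.61 in D4, and 1.23 and 1.0 in D6. Hoxb4, known for its role in blood stem cells, was at 1.14 and 1.47 in D0, 6.42 and 3.86 in D2, 4.92 and 6.44 in D4, and 4.67 and 3.64 in D6, and still at 2.24 and 2.09 in D12. Hoxb3 was at 0 and 0 in D0, 9.12 and 2.71 in D2, and 2.33 and 5.14 in D4, with a wide spread in D2. Its antisense partner Hoxb3os covers 52.9% of the exonic bases of Hoxb3 and 27.3% of those of Hoxb2. The strand setting of the counting is not given in the sources used here, so reads of the partners may not be separated. Hoxb13, at the posterior end, had its highest mean on D8, with 1.59 and 1.1.

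In HoxA, Hoxa5, a gene of the neck and the airways, was at 2.65 and 3.46 in D0, 4.9 and 4.25 in D2, 11.6 and 17.6 in D4, and 1.79 and 2.18 in D6. It was at 0.673 and 1.08 in D8, 0.652 and 0.752 in D10, 0 and 0.0461 in D12, 0.162 and 0.0587 in riPSC, and 0 and 0 in mESC. Hoxa10 and Hoxa11, genes of the limb and the reproductive tract, were still above both D0 libraries on D6. Hoxa10 was at 2.26 and 3.94 in D0, 13 and 7.01 in D2, 13.4 and 23.7 in D4, and 11.4 and 10.4 in D6, and at 6.31 and 7.11 in D8, 2.4 and 2.37 in D10, 1.27 and 0.964 in D12, 0.361 and 0.254 in riPSC, and 0.178 and 0 in mESC. Hoxa11 was at 2.9 and 4.19 in D0, 7.15 and 6.0 in D2, 12.5 and 14 in D4, and 8.31 and 8.24 in D6, and at 1.48 and 1.6 in D8, 0.819 and 0 in D10, 0.685 and 0.519 in D12, 0.0881 and 0.0664 in riPSC, and 0.0566 and 0 in mESC. Its antisense gene Hoxa11os covers 35.0% of its exonic bases. Hoxa7 was the only member of the cluster with its highest mean in D0: it was at 8.63 and 6.31 in D0, 4.38 and 4.39 in D2, 2.69 and 3.18 in D4, and 2.84 and 2.36 in D6. It stood at 4.42 and 3.73 in D8, 1.97 and 2.02 in D10, 0.289 and 0 in D12, 0 and 0.38 in riPSC, and 0.304 and 0.644 in mESC, and Hoxaas3, antisense to it, covers 20.4% of its exonic bases. The anterior genes Hoxa2, Hoxa3 and Hoxa4 were listed at 0 in D0 replicate 1, at most at 1.47 in replicate 2, and at 2.73 and 2.55, 3.42 and 5.23 and 4.86 and 5.97 in D4. Hoxa9 was at 0.101 and 2.08 in D0, 5.3 and 3.75 in D2, 6.16 and 7.04 in D4, and 2.56 and 2.35 in D6, and Hoxa13 had its highest mean on D6, with 1.34 and 1.18.

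In HoxD, Hoxd10, Hoxd11 and Hoxd12, genes of the limb, had their highest mean in D0. Hoxd11 was at 7.37 and 10.3 in D0, 1.26 and 1.51 in D2, 3.51 and 2.92 in D4, and 1.89 and 1.65 in D6, and at 0.452 and 0.546 in D8, 0 and 0.0392 in D10, 0.0762 and 0 in D12, 0 and 0.181 in riPSC, and 0 and 0 in mESC. Both D0 libraries were above every other library. Hoxd10 was at 2.1 and 3.43 in D0 and at 0 in all D12, riPSC and mESC libraries, and Hoxd12 was at 0.922 and 1.65 in D0 and at 0 from D8 on. Hoxd13, a gene of the digits, was at 3.8 and 6.17 in D0, 5.98 and 4.3 in D2, 4.09 and 7.13 in D4, and 3.13 and 3.42 in D6, and at 0.925 and 0.455 in D8, 0.244 and 0.207 in D10, 0 and 0.237 in D12, 0.552 and 0.586 in riPSC, and 0.373 and 0.512 in mESC. Hoxd8 and Hoxd9 were higher in D4, at 3.47 and 4.95 and at 2.38 and 3.85, than in any D0 or D2 library, and Hoxd8 was at 4.26 and 4.41 in D6. Hoxd4 was at 1.6 and 1.86 in D0. Hoxd3 and Hoxd4 share exonic bases with each other and with a further gene on the same strand, 62.3% and 52.3% of their own, so their levels are uncertain. The members whose mean never reached 1 FPKM were Hoxa6, Hoxb1, Hoxd1 and Hoxd3, with highest values in any library of 0.898, 0, 0.267 and 0.249.

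**Figure D3:**
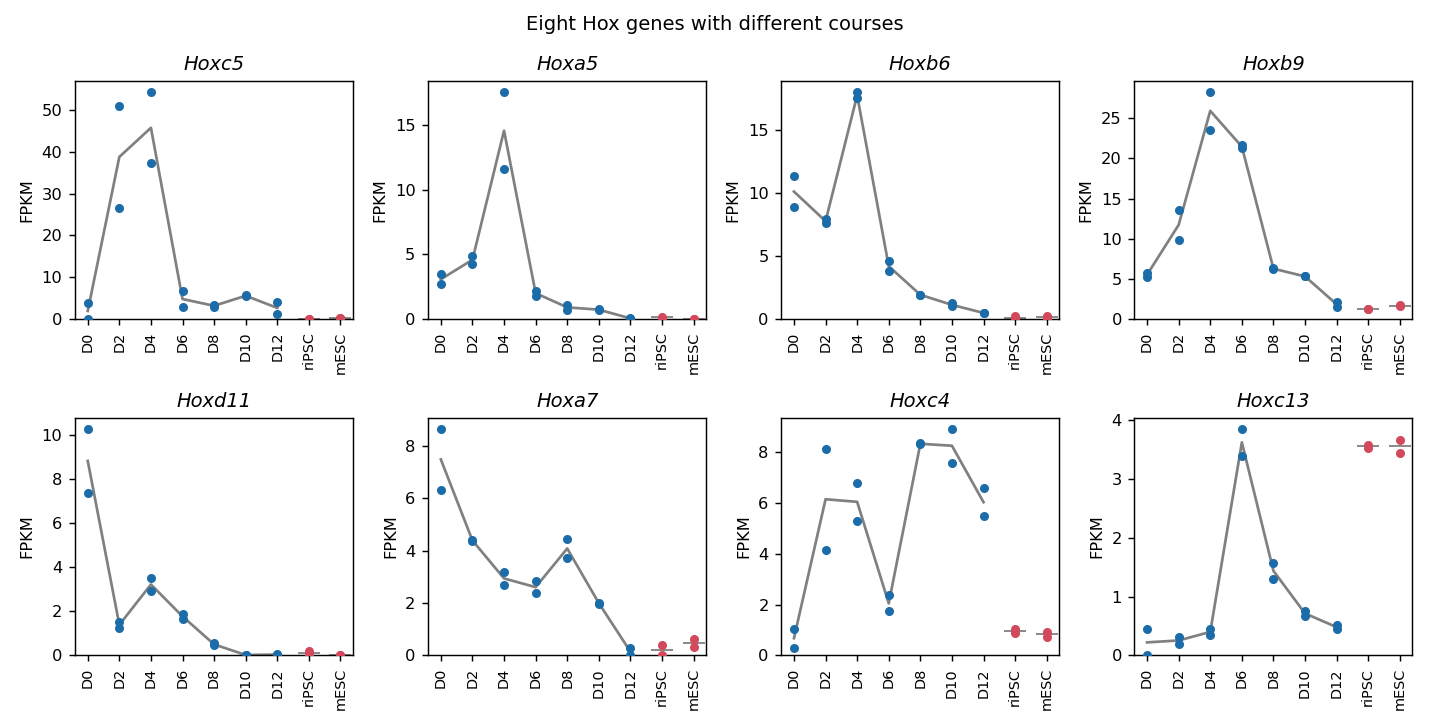
FPKM of 8 Hox genes in the 9 groups: points are libraries (blue for D0 to D12, red for riPSC and mESC), grey lines and dashes are means of 2, and each panel has its own scale. Hoxc5, Hoxa5 and Hoxb6 have their highest mean on D4, Hoxb9 stays high on D6, Hoxd11 and Hoxa7 are highest on D0, Hoxc4 is highest on D8 and D10, and Hoxc13 is high on D6 and in the pluripotent groups.

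Upstream sequence was at hand for 22 of the 38 members, in 24 windows from 250 bases before to 50 after the annotated start (RefSeq, GRCm38.p6). Hoxa5, Hoxb8 and Hoxd8 are shown because they rose by D4, and Hoxd11, at its upstream annotated start, because it fell on D2. Only bases before the start are printed, on the strand of the gene. Capitals mark 3 patterns searched on both strands: AGGTCA (the core site of retinoic acid and other nuclear receptors), TGATNNAT (bound by Pbx and Hox proteins together) and TTTATG (a caudal factor site), or their reverse complements. The stretches lie at chr6:52204588-52204837 (minus strand) for Hoxa5, chr11:96281655-96281904 (plus) for Hoxb8, chr2:74704365-74704614 (plus) for Hoxd8 and chr2:74679308-74679556 (plus) for Hoxd11.
Hoxa5: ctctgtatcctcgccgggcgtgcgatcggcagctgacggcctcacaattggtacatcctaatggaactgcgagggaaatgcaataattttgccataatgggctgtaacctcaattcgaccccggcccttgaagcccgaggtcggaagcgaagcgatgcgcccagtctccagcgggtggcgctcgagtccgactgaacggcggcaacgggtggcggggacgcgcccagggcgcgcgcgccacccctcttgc
Hoxb8: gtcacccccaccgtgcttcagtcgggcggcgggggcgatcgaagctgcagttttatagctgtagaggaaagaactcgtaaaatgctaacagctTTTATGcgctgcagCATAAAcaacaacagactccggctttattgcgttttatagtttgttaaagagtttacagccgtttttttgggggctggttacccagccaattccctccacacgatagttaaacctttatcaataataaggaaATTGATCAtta
Hoxd8: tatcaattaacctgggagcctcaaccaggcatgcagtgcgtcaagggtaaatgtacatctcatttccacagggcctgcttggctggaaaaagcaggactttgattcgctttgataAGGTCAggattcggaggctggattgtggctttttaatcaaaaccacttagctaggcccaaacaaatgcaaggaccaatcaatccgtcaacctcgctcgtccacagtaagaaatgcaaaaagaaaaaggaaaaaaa
Hoxd11: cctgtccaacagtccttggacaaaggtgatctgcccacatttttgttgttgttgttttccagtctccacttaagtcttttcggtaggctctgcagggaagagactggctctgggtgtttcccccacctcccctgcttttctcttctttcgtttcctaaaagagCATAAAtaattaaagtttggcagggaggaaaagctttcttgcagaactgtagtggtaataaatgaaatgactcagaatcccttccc
The Hoxa5 stretch holds none of the 3 patterns, the Hoxb8 stretch holds 1 TGATNNAT and 2 TTTATG, the Hoxd8 stretch 1 AGGTCA, and the Hoxd11 stretch 1 TTTATG. The pattern AGGTCA was found in 7 of the 24 member windows, against 16.3% of 32851 windows of all genes. TGATNNAT was in 4, against 8.85%, and TTTATG in 5, against 11.9%. The member windows held a median of 14.5 CpG dinucleotides (4 to 45), and all windows a median of 7. These matches describe letters only and say nothing of binding.

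Of the 38 members, 33 passed the filter of 1 FPKM in at least 2 libraries and were tested. The others were Hoxa6, Hoxb1, Hoxd1, Hoxd3 and Hoxd12. Differences are log2 differences of FPKM + 1, with the standard error (SE) and the Benjamini-Hochberg adjusted p of limma over all genes tested. This scale understates the change of low genes. A gene was called, and is said to have risen or fallen, at an adjusted p under 0.05 and a difference of at least 2-fold on this scale.

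From D0 to D2 a subset of members rose, and Hoxd11 fell. The count was 10 members up and 1 down, against 19.5% and 4.63% of all genes. The median was 0.49 over the members tested and 0.24 over all genes. The risers were Hoxa9, Hoxa10, Hoxb3, Hoxb4, Hoxb8, Hoxc4, Hoxc5, Hoxc6, Hoxc8 and Hoxc10, so 5 of 9 tested in HoxC, 3 of 9 in HoxB, 2 of 9 in HoxA and 0 of 6 in HoxD, where 0 were higher at an unadjusted p under 0.05. Whether the clusters differ was not tested. Hoxc5 rose by 4.12 ± 0.61 (adjusted p = 0.000157), Hoxc6 by 2.16 ± 0.32 (adjusted p = 0.000156) and Hoxc4 by 2.07 ± 0.26 (adjusted p = 4.09e-05). Hoxb3 passed as well (adjusted p = 0.000139), from a group listed at 0. Hoxd11 fell by 2.03 ± 0.14 (adjusted p = 4.02e-07). Without D0 replicate 1 the calls of Hoxa9, Hoxb8 and Hoxc10 were lost, and without D2 replicate 1 those of Hoxa10 and Hoxb8. With the D2 libraries averaged and counted as 1 sample the same 10 rose and the same 1 fell. A fit of the 4 libraries of D0 and D2 alone called 0 members in either direction. Of all 16439 genes it called only 64 higher and 24 lower. With median-of-ratios scaling 8 members rose and 4 fell, and of all 16329 genes 2458 rose and 1533 fell. Markers of other cell types moved at the same step: 7 of 9 myeloid markers tested fell (summed FPKM 119 and 132 in D0 and 19.5 and 20.4 in D2, with Ptprc, which marks all white blood cells, at most 0.137 in any library). Likewise 8 of 9 striated muscle markers tested fell (from 409 and 346 to 43.4 and 55.1). The same 7 and 8 fell with the D2 libraries counted as 1 sample. The part of these cells in the Hox values of D0 was not tested.

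From D2 to D4, members of HoxA, HoxB and HoxD rose. Of the 33 tested, 11 rose and 0 fell, against 5.66% and 4.48% of all genes, with a median of 0.68 over the members and 0.04 over all genes. The risers were Hoxa2, Hoxa3, Hoxa4 and Hoxa5, then Hoxb2, Hoxb5, Hoxb6, Hoxb8 and Hoxb9, then Hoxd8 and Hoxd9. In HoxC limma called 0 of 9, and at an unadjusted p under 0.05 1 HoxC gene was higher and 2 were lower. Hoxa4 rose by 1.53 ± 0.29 (adjusted p = 0.00163), from 1.34 and 1.1 FPKM to 4.86 and 5.97. Hoxd9 rose by 1.49 ± 0.25 (adjusted p = 0.000886), from 0.352 and 0.542 to 2.38 and 3.85. Hoxa5 rose by 1.46 ± 0.17 (adjusted p = 6.15e-05) and Hoxd8 by 1.32 ± 0.22 (adjusted p = 0.000848). Hoxb8 was called at both of these steps. Without D2 replicate 2, Hoxa3, Hoxb5, Hoxb8 and Hoxb9 were no longer called. Without D4 replicate 2 this held for Hoxa3, Hoxb8 and Hoxb9, and without D2 replicate 1 or D4 replicate 1 for Hoxb2. With the D2 libraries averaged and counted as 1 sample the same 11 rose and 0 fell. The 4 libraries of D2 and D4 alone called 2 risers, and median-of-ratios scaling 6. Over all genes these settings called 187 risers of 16439 and 728 of 16329. At an unadjusted p under 0.05, 3 members were lower, and the share of all genes at that cut was not counted.

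From D4 to D6 many anterior and middle genes fell and few posterior genes did. Of the members tested, 12 fell and 1 rose, against 6.86% and 11.6% of all genes, and the median was -0.64 against 0.07. Fallers were Hoxa2, Hoxa3, Hoxa4, Hoxa5, Hoxa9, Hoxb2, Hoxb5, Hoxb6, Hoxb7, Hoxc4, Hoxc5 and Hoxc9. By position, 5 of 8 tested genes of paralogs 1 to 4 fell, 5 of 10 of paralogs 5 to 8, and 2 of 15 of paralogs 9 to 13, with medians of -1.25, -1.12 and -0.47. A gene with a D4 mean under 1 FPKM cannot fall 2-fold on this scale. A D4 mean of at least 1 FPKM was reached by 7 members of paralogs 1 to 4, 10 of paralogs 5 to 8 and 10 of paralogs 9 to 13. The count of 15 posterior genes thus holds genes that could not be called lower, which also bring its median nearer to 0. No test of the difference between these classes was made. Hoxc5 fell by 3.09 ± 0.61 (adjusted p = 0.00128), Hoxa5 by 2.36 ± 0.17 (adjusted p = 6.62e-07), Hoxb6 by 1.86 ± 0.14 (adjusted p = 7.3e-07) and Hoxb5 by 1.79 ± 0.22 (adjusted p = 3.46e-05). Hoxa9, with a difference of -1.14 ± 0.35, adjusted p = 0.0178, was no longer called when any single library of D4 or D6 was left out. Hoxc13 rose by 1.72 ± 0.15 (adjusted p = 1.82e-06).

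Over the 27 members with a D4 mean of at least 1 FPKM, the D6 mean was a median of 47.4% of the D4 mean. Choosing members by their D4 level favours a lower percent on other days. It left out Hoxc13, which rose at this step, and Hoxa13, which had its highest mean on D6. The median was 26.2% over the 7 members of paralogs 1 to 4, 41.0% over the 10 of paralogs 5 to 8, and 58.5% over the 10 of paralogs 9 to 13. Hoxc5 kept 10.3%, Hoxa5 13.6% and Hoxa2 16.3%, while Hoxb9 kept 82.8%, Hoxa7 88.7% and Hoxd8 103%. Hoxb4, at 73.3%, was the highest of paralogs 1 to 4, and Hoxc9, at 26%, the lowest of paralogs 9 to 13. On D8 the medians were 13.8%, 22.7% and 23.9%, and Hoxa11 was down to 11.6% and Hoxd13 to 12.3%. By D12, 25 of the 27 were under 25%, the exceptions being Hoxb4 with 38.1% and Hoxc4 with 99.8%.

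**Figure D4:**
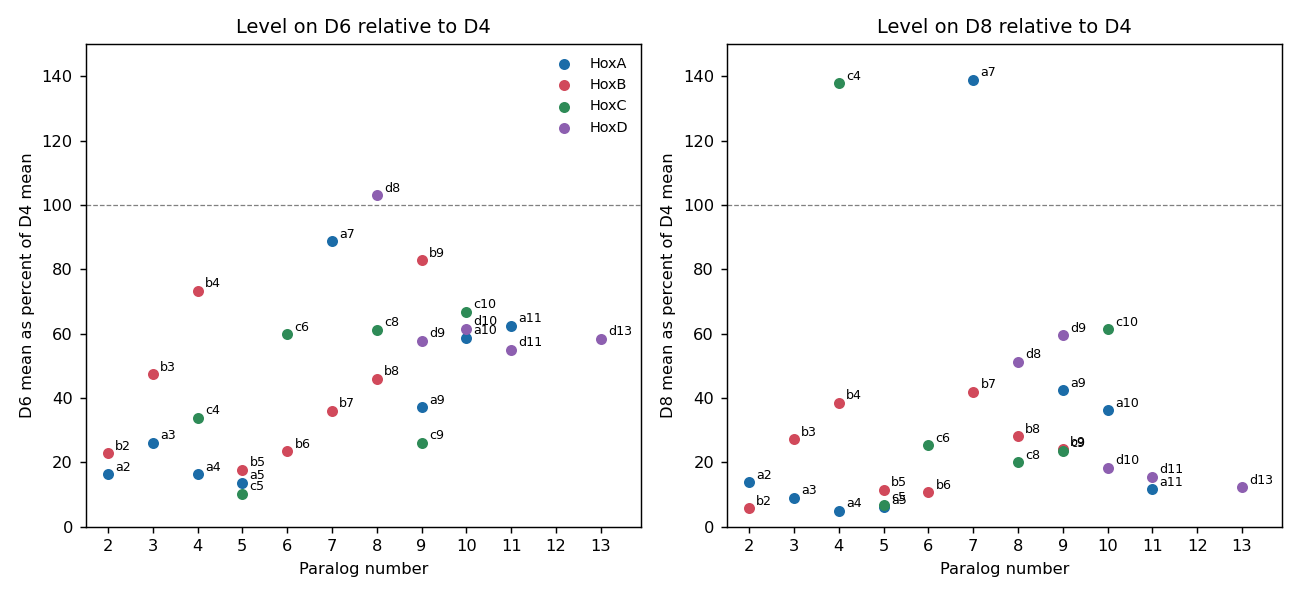
Mean FPKM on D6 (left) and D8 (right) as a percent of the D4 mean, against paralog number, for the 27 members with a D4 mean of at least 1 FPKM (points, colored by cluster and named). On D6 Hoxc5 is lowest with 10.3% and Hoxd8 highest with 103%, and on D8 Hoxc4 and Hoxa7 lie far above the rest with 138% and 139%.

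From D6 to D8 there were 5 members that fell and 1 that rose. Hoxa11 fell by 1.87 ± 0.22 (adjusted p = 1.45e-05), Hoxb9 by 1.63 ± 0.15 (adjusted p = 1.49e-06), Hoxd13 by 1.35 ± 0.24 (adjusted p = 0.000408) and Hoxc8 by 1.27 ± 0.19 (adjusted p = 9.23e-05). Hoxc6 fell as well. Of all genes 11.3% fell and 15.1% rose, so the share of members that fell was close to that of all genes. The median was -0.56 against 0.08. Hoxc6 was no longer called without D6 replicate 2. Hoxc4 rose by 1.62 ± 0.26 (adjusted p = 0.000162). At the same step 12 of 13 fibroblast markers fell (summed FPKM 3556 and 3531 in D6 and 639 and 633 in D8, with none of the 13 at 0). Of the extraembryonic endoderm markers, 7 of 8 tested rose (from 54.8 and 52.7 to 518 and 494). Their part in the Hox changes was not tested.

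After D8 few members passed the test at a single step. From D8 to D10, 0 members rose and 1 fell, against 0.426% and 2.43% of all genes. That member was Hoxa10 (-1.18 ± 0.28, adjusted p = 0.018), and it was no longer called when any single D8 or D10 library was left out. At an unadjusted p under 0.05, 0 members were higher and 12 lower (limma). The share of all genes at that cut was not counted. From D10 to D12, 0 rose and 4 fell, against 6.01% and 4.68%. They were Hoxa7 (-1.40 ± 0.19, adjusted p = 0.000118), Hoxc10 (-1.29 ± 0.42, adjusted p = 0.0316), Hoxb9 (-1.18 ± 0.15, adjusted p = 6.59e-05) and Hoxb7 (-1.03 ± 0.27, adjusted p = 0.00977). Hoxc10 was no longer called when any single D10 or D12 library was left out, and Hoxb7 was not called without D10 replicate 1 or D12 replicate 1. At an unadjusted p under 0.05, 1 member was higher and 12 were lower, again without a count of all genes at that cut. With median-of-ratios scaling, 2 fell at this step, and so did 575 of all 16329 genes.

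**Figure D5:**
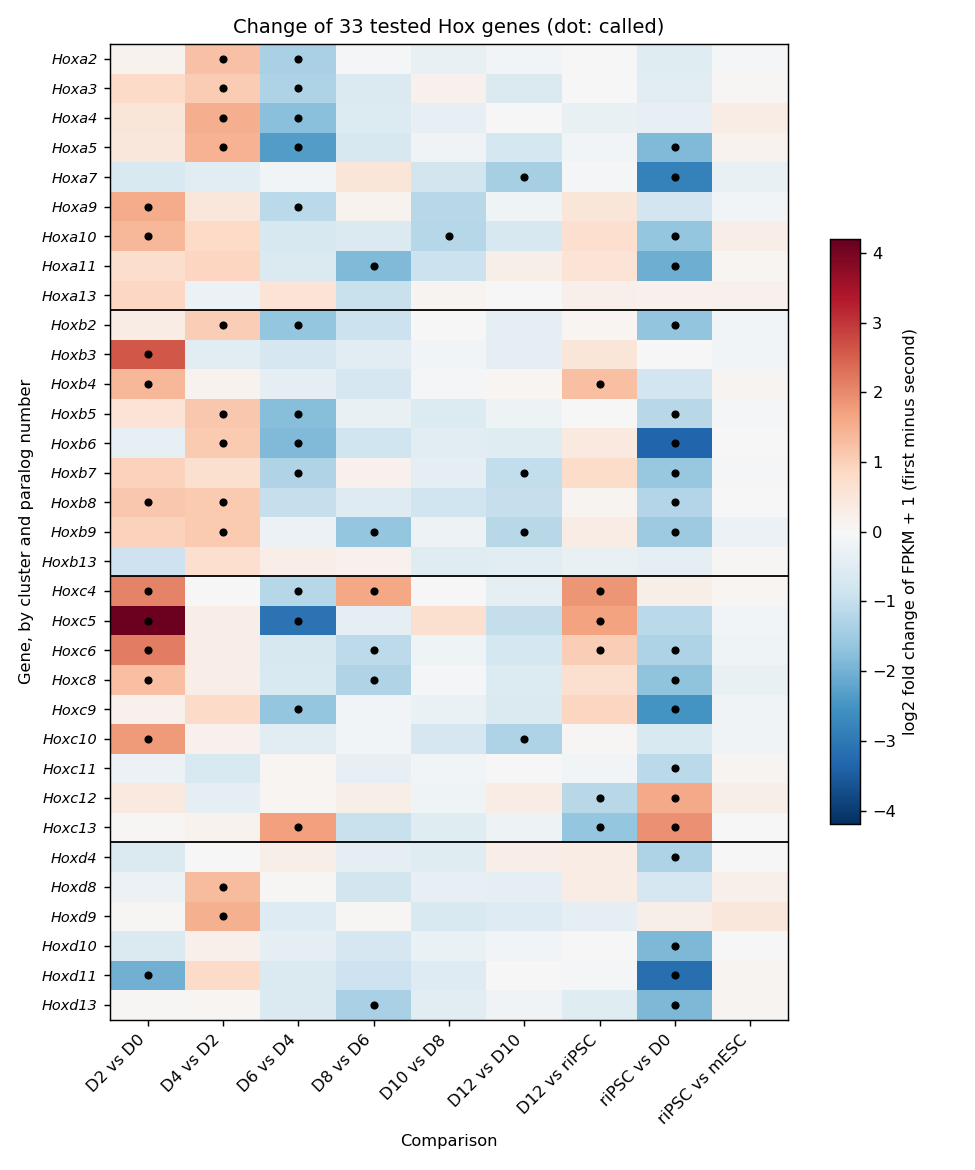
Log2 difference of FPKM + 1 (color, first group minus second) for the 33 tested Hox genes in 9 comparisons, with a dot where the gene was called (adjusted p under 0.05 and at least 2-fold). D2 vs D0 has 10 called rises, D4 vs D2 11, D6 vs D4 12 called falls and riPSC vs D0 18, and the column riPSC vs mESC has no dot.

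Against the starting fibroblasts, D6 was a mixture. On D6, 11 members were higher than in D0 and 3 lower, against 32.8% and 8.79% of all genes, so both shares were near those of all genes. Hoxc13 (1.94 ± 0.15, adjusted p = 3.09e-07), Hoxb9 (1.79 ± 0.15, adjusted p = 6.67e-07), Hoxc6 (1.75 ± 0.32, adjusted p = 0.000335) and Hoxa10 (1.56 ± 0.28, adjusted p = 0.000304) were among the higher ones. Hoxd11 (-1.81 ± 0.14, adjusted p = 4.42e-07), Hoxa7 (-1.22 ± 0.19, adjusted p = 9.56e-05) and Hoxb6 (-1.10 ± 0.14, adjusted p = 1.92e-05) were the lower ones. Median-of-ratios scaling gave 7 higher and 6 lower (3764 and 2698 of all 16329 genes). Removal of a length trend gave 5 and 5 (2660 and 2566 of all 16439 genes). Without D0 replicate 1, 7 members were higher, and without D0 replicate 2, 17. Over all genes 4536 and 6204 were then higher. Hoxa11, Hoxb8, Hoxc10 and Hoxd8 were not called without D0 replicate 1, nor Hoxb6 without D0 replicate 2 or D6 replicate 1.

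On D12, 1 member was higher than in D0 and 14 were lower, against 38% and 13.8% of all genes. The median was -0.82 over the members and 0.56 over all genes. The higher one was Hoxc4 (2.1 ± 0.26, adjusted p = 8.17e-06). Hoxd11 (-3.23 ± 0.14, adjusted p = 7.76e-10), Hoxb6 (-2.92 ± 0.14, adjusted p = 1.66e-09), Hoxa7 (-2.89 ± 0.19, adjusted p = 3.12e-08) and Hoxd13 (-2.40 ± 0.24, adjusted p = 1.38e-06) were the lowest. Mitochondrial genes took 62.3% and 62.1% of FPKM in D12, and with median-of-ratios scaling 18 members were lower, as were 3339 of all 16329 genes. Hoxb2, Hoxb5, Hoxb8 and Hoxc8 were not called without D0 replicate 2, nor Hoxb8 without D12 replicate 2, nor Hoxc8 without D12 replicate 1.

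In riPSC, 18 members were lower than in D0 and 2 higher, against 13% and 40.1% of all genes, with a median of -1.16 over the members and 0.62 over all genes. Lower genes came from every cluster: 4 of 9 tested in HoxA, 6 of 9 in HoxB, 4 of 9 in HoxC and 4 of 6 in HoxD. Hoxb6 (-3.34 ± 0.14, adjusted p = 4.87e-10), Hoxd11 (-3.16 ± 0.14, adjusted p = 9.4e-10), Hoxa7 (-2.84 ± 0.19, adjusted p = 3.47e-08) and Hoxc9 (-2.52 ± 0.16, adjusted p = 2.19e-08) were lowest. By position, 2 of 8 tested genes of paralogs 1 to 4 were lower, 8 of 10 of paralogs 5 to 8, and 8 of 15 of paralogs 9 to 13. A gene with a D0 mean under 1 FPKM cannot fall 2-fold on the log2(FPKM + 1) scale. This held for Hoxa2, Hoxa3, Hoxa4, Hoxb3 and Hoxc4 of paralogs 1 to 4, and for Hoxc12, Hoxc13 and Hoxd9 among the posterior genes. The counts therefore do not show that anterior genes were lower less often. The higher members were Hoxc13 (1.92 ± 0.15, adjusted p = 1.04e-07) and Hoxc12 (adjusted p = 2.49e-07, listed at 0 in both D0 libraries). Without D0 replicate 2, the calls of Hoxb5, Hoxb8, Hoxc6 and Hoxc11 were lost. With median-of-ratios scaling 21 were lower, and so were 3467 of all 16329 genes.

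The members called between D12 and riPSC lay in HoxB and HoxC. On D12, 4 of the 33 tested were higher and 2 lower, against 16.7% and 19.8% of all genes. Both shares of members were thus below those of all genes. A gene with a mean under 1 FPKM in both groups cannot differ 2-fold on the log2(FPKM + 1) scale. A mean of at least 1 was reached by 8 members in D12 and 3 in riPSC, so few could be called. The counts therefore do not show a difference particular to Hox genes. Hoxc4 (1.84 ± 0.26, adjusted p = 3.82e-05), Hoxb4 (1.26 ± 0.18, adjusted p = 5.75e-05) and Hoxc6 (1.04 ± 0.32, adjusted p = 0.0127) were higher, and so was Hoxc5 (adjusted p = 0.027), which was listed at 0 in both riPSC libraries. Hoxc5 and Hoxc6 were not called without D12 replicate 2 or riPSC replicate 1, nor Hoxc5 without riPSC replicate 2. Hoxc13 (-1.62 ± 0.15, adjusted p = 7.6e-07) and Hoxc12 (-1.15 ± 0.13, adjusted p = 7.55e-06) were lower on D12.

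No member was called between riPSC and mESC: limma gave 0 of 33 in either direction, against 1.84% higher and 1.2% lower of all genes, and 0 at an unadjusted p under 0.05. Differences ran from -0.32 for Hoxa7 to 0.48 for Hoxd9. A p that misses the threshold does not show equal levels. The 95% interval was -0.32 to 0.32 for Hoxc13 and -0.04 to 0.55 for Hoxc12, but -1.45 to 1.21 for Hoxc5. These intervals use the spread of each gene over all 9 groups. The median difference between the libraries of a group was 0.04 over the members in riPSC and 0.08 in mESC, against 0.56 in D0. The intervals and p-values of this comparison may therefore be too large. Both groups grew on feeders, and the 13 fibroblast and feeder markers summed to 92.5 and 99.6 FPKM in riPSC and 170 and 185 in mESC, with none at 0. The part of feeder RNA in the Hox values of these groups was not tested.

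Noncoding genes inside the clusters were described from the same fit. Of the 16 found, 9 passed the filter. Of these, 4 rose from D2 to D4 (3 with the D2 libraries counted as 1 sample, against 5.66% of all genes), 5 fell from D4 to D6 (6.86%) and 5 fell from D6 to D8 (11.3%). Hoxb5os, antisense to Hoxb5, was at 4.03 and 3.81 in D2, 11.7 and 14.5 in D4, and 3.64 and 3.51 in D6. Hotairm1, at the anterior end of HoxA, was at 9.26 and 9.18 in D2, 16.6 and 17 in D4, and 3.23 and 4.15 in D6. Hotair, in HoxC, was listed at 0 in every library, and Hottip, at the posterior end of HoxA, was at most 0.00213. Of 12 coding genes that flank the clusters, 8 were higher in riPSC than in D0 and 0 lower (limma, against the 40.1% and 13% of all genes). Evx1, a homeobox gene next to HoxA, was the flanking gene that rose from D2 to D4, at 0.443 and 0.0966 in D2, 3.49 and 3.99 in D4, and 0.0344 and 0 in D6.

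Hox proteins bind DNA together with Pbx and Meis cofactors. Of the cofactor genes, Meis2 rose from D0 to D2 by 2.65 ± 0.26 (adjusted p = 5.93e-06) and fell from D6 to D8 by 1.63 ± 0.26 (adjusted p = 0.000158). Meis2 was at 1.74 and 2.49 in D0, 26.6 and 12.7 in D2, 13.2 and 19.1 in D4, 32.6 and 29.6 in D6, and 9.69 and 8.96 in D8. Meis1 was at 6.8 and 7.13 in D12 and 0.158 and 0.493 in riPSC.

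Of 17 genes of retinoic acid signaling, 8 rose from D0 to D2 and 0 fell, against the 19.5% and 4.63% of all genes, and the same 8 rose with the D2 libraries counted as 1 sample. The receptor gene Rarb, itself a known retinoic acid target, was at 0.25 and 0.754 in D0, 20.5 and 9.93 in D2, 35.7 and 38.6 in D4, 21.6 and 19.4 in D6, and 2.41 and 2.07 in D8. Among these days Rarb was highest on D4. The part of retinoic acid signaling in the Hox changes was not tested. Stra6, a retinol transporter, was at 0 and 0.15 in D0 and 215 and 126 in D2. Of the enzymes that break retinoic acid down, Cyp26b1 was at 1.28 and 2.88 in D0, 84.8 and 39.1 in D2, 62.3 and 78.4 in D4, and 182 and 172 in D6, and Cyp26a1 at 12.9 and 12.6 in D6 and 168 and 173 in D8. From D6 to D8, 7 of the 17 fell, Rarb by 2.73 ± 0.25 (adjusted p = 1.54e-06), and 3 rose, against the 11.3% and 15.1% of all genes.

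Among caudal factors, Cdx2 was at most 0.194 through D6, and then at 19.3 and 20.9 in D8, 16.9 and 17.9 in D10, and 20.2 and 23.3 in D12, and at 0 in riPSC and mESC. Cdx1 was at 14.1 and 15.2 in riPSC and 13.3 and 15 in mESC and at most 0.37 before.

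Of 16 Polycomb genes, 6 rose from D6 to D8 and 0 fell, against the 15.1% and 11.3% of all genes. In riPSC, 11 were higher and 1 lower than in D0, against the 40.1% and 13% of all genes. Cbx7, a reader of the repressive mark, was at 1.84 and 1.42 in D6, 6.51 and 5.19 in D8, and 79.4 and 87.5 in riPSC. Ezh2, the enzyme that sets the mark, was at 11.2 and 14.9 in D0, 30.3 and 32.4 in D4, 8.42 and 9.22 in D6, and 65.5 and 70.0 in riPSC. Of 12 trithorax group and associated genes, 9 were higher in riPSC than in D0 and 0 lower (limma, against the 40.1% and 13% of all genes).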

How the data were processed

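The submitters' processing notes name fastp 0.20.1, HISAT2 2.2.1, StringTie 2.0 and the build mm10. The annotation release and the strand setting are not given in the sources used here. The deposited values are FPKM per Ensembl gene, 1 table per library, a unit read from the values (column sums that differ between tables, and steps of 1 read pair in single-exon genes). Groups and replicate numbers came from the sample titles. Symbols came from a table of gene IDs that named 55141 of the 55401, coordinates and exonic lengths from GENCODE vM21 (GRCm38), and promoter sequences from RefSeq.

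After log2(FPKM + 1), limma 3.58.1 in R 4.3.3 was fitted to the 16439 genes that reached 1 FPKM in at least 2 libraries, with 9 group means, all 18 libraries and 9 residual degrees of freedom. P-values were two-sided and adjusted within each of 11 comparisons. Members are described by counts and medians, without a test of the list. The procedure was tested on simulated data. The members and lists were chosen with earlier results of these data known. Alternatives were other pseudocounts, no filter, median-of-ratios scaling, removal of a length trend, eBayes with a trend, fits of 2 groups, a replicate block and leaving out each library. Because the 2 D2 tables share values, a fit with their mean as 1 sample was added after seeing the data. Members with a mean of at least 10 FPKM, the 4 highest and 4 lowest calls of each comparison and up to 4 called genes of other lists were named by rule; further genes are named to complete a count or a position. A further coding Hox gene is not reported here.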

Additional observations from a re-analysis of the deposited data

How the results depend on the processing

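With a pseudocount of 5 in place of 1, which shrinks the differences of low genes, the counts of members were smaller: D2 had 3 risers against D0, D4 had 1 against D2, D6 had 0 risers and 4 fallers against D4, D8 had 0 and 2 against D6, and neither D10 nor D12 had a faller (0) against the day before. It gave 2 higher and 1 lower on D6 than in D0, 0 and 3 on D12, 0 and 3 in riPSC, and 0 and 0 on D12 against riPSC. Fewer of all 16439 genes were called too. Risers from D0 to D2 numbered 1055 (3204 in the main fit), and risers from D2 to D4 306 (930 in the main fit). Fallers from D4 to D6 numbered 541 (1127 in the main fit). With a pseudocount of 0.1 the counts were 2 lower on D2 than D0, 7 higher and 1 lower on D4 than D2, 2 higher and 10 lower on D8 than D6, 2 lower on D10 than D8, 5 higher on D12 than D0 and 11 higher on D12 than in riPSC. Of all 16439 genes, 1091 were then lower on D2 than D0, and 1571 higher and 1130 lower on D4 than D2. On D8, 3428 were higher and 2317 lower than on D6, and 666 were lower on D10 than D8. On D12, 7846 were higher than in D0 and 3519 higher than in riPSC. With no filter there were 2 fallers from D0 to D2, D10 had 0 against D8 and D12 had 2 against D10, and 2 members were higher on D12 than in riPSC.

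Median-of-ratios scaling gave 4 fallers from D0 to D2, 6 risers from D2 to D4, 2 fallers from D10 to D12, and 7 higher and 6 lower on D6 than in D0. Of all 16329 genes tested with it, 1533 fell from D0 to D2, 728 rose from D2 to D4 and 575 fell from D10 to D12. On D6, 3764 were higher and 2698 lower than in D0. Removal of the length trend gave 6 risers from D2 to D4, 2 fallers from D8 to D10, 5 higher and 5 lower on D6 than in D0, and 1 lower on D12 than in riPSC. Of all 16439 genes, 727 then rose from D2 to D4 and 390 fell from D8 to D10. On D6, 2660 were higher and 2566 lower than in D0, and 2789 were lower on D12 than in riPSC. Fits of 2 groups gave 0 risers and 0 fallers from D0 to D2, 2 risers from D2 to D4 and 2 fallers from D8 to D10. Of all 16439 genes, these fits called 64 risers and 24 fallers from D0 to D2, 187 risers from D2 to D4 and 415 fallers from D8 to D10. Beyond fewer libraries in the fit and the construction of each setting, the cause was not tested.

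Leaving out single libraries gave 7 to 14 risers and 1 to 2 fallers from D0 to D2 (2 without D0 replicate 1), 7 to 12 and 0 to 1 from D2 to D4 (7 without D2 replicate 2, and 1 faller without D2 replicate 2 or D4 replicate 2), 10 to 12 fallers on D6 against D4, 4 to 7 on D8 against D6, 0 to 2 on D10 (changed without either D0 or D8 replicate, or D10 replicate 2) and 3 to 4 on D12 against D10. For D6 against D0 it gave 7 to 17 higher and 2 to 4 lower, for D12 against D0 1 to 2 higher (2 without D0 replicate 2) and 10 to 20 lower, for riPSC against D0 14 to 22 lower, and for D12 against riPSC 2 to 4 higher (2 without D12 replicate 2). The other counts of members, riPSC against mESC included, stayed the same when single libraries were left out. Calls over all genes moved as well. Higher on D6 than in D0 were 4536 genes without D0 replicate 1 and 6204 without D0 replicate 2.

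Over 101 calls of single members there were 2723 values under alternatives, of which 2516 kept the call, 207 lost it and 0 changed direction. Of these values, 1814 came from leaving out single libraries, most of them outside the comparison at hand, so the pooled count overstates how firm the calls are. A pseudocount of 5 lost 81 of the 101. With that setting and the fits of 2 groups set aside, 61 of the 101 calls were kept in every alternative. The replicate numbers did not pair the samples: only 5 of 36 pairs of groups had a correlation of same-numbered deviations above 0.1 (-0.23 to 0.27). With the 2 D2 libraries, which share values, averaged and counted as 1 sample, a setting chosen after seeing the data, all 101 calls were kept. Only the calls from D0 to D2 and from D2 to D4 compare D2, and their spread then comes from the other groups. That they were kept therefore says little about the effect of the shared values. A fit with the replicate number as a block left each count of members as it was (10 risers and 1 faller from D0 to D2, 11 risers from D2 to D4).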
